A study of Mus musculus with 6 samples.

Results

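Regulatory T cells of the mouse spleen were described in 6 single-cell long-read libraries. The cells were chosen by their counts of these genes: a cell was taken as one where it had at least 1 count over Cd3d, Cd3e and Cd3g, no count of Cd8a or Cd8b1, at most 1 count over the B cell genes Cd79a, Cd79b and Ms4a1, and either a Foxp3 count or counts of both Ikzf2 and Ctla4. Of 20036 barcodes, 15578 passed the cell filters (200 or more genes, mitochondrial share up to 20%), and 92 of these met the rule. The other 2670 CD8-negative T cells, which met the rule on T, CD8 and B cell genes but neither Foxp3 nor the Ikzf2 and Ctla4 rule, served for comparison. "CD8-negative" here means without a CD8 count, and at this depth a cell can carry CD8 transcripts that were not counted.

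Regulatory T cells are CD4 T cells that restrain immune responses. The transcription factor Foxp3 defines them in mice, Ikzf2 (Helios) is a transcription factor carried by many of them, Ctla4 is an inhibitory receptor for the B7 ligands, and Il2ra (CD25) is the high-affinity chain of the interleukin 2 receptor. In the spleen they occur as a resting fraction that shares genes with naive T cells and as an activated, effector-like fraction that carries receptors of the TNF receptor family.

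The libraries fall into 3 protocols with 2 libraries each, and all are labelled spleen. The mice were females of 10 weeks, of the inbred strain C57BL/6 per the series text. The 5prime_mod libraries were made with the 10x Genomics 5′ kit v2, changed by extra dNTP and a longer extension step, the 5prime libraries with the unmodified 5′ kit v2, and the 3prime libraries with the 3′ kit v3.1. The cDNA was sequenced whole on Nanopore flow cells. For the 3 libraries of replicate 2 the extraction protocol tells of pancreatic islets, against their spleen label. The 92 regulatory T cells had no count of any of 10 pancreas genes looked up. The 2670 other CD8-negative T cells had 6 such counts in 5prime_mod replicate 2, 1 in 3prime replicate 2 and none in the other libraries. B cells had 52 in 5prime_mod replicate 2 (in 2.62% of its B cells), 2 in 5prime replicate 2 and 3 in 3prime replicate 2, against 0 or 1 in each replicate 1 library. Whether replicates are separate animals is left unsaid by the labels. The p-values cover at most variation from library to library, which may be only technical.

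The number of regulatory T cells was 12 and 18 in the 5prime_mod libraries, 2 and 22 in the 5prime libraries, and 16 and 22 in the 3prime libraries. Their counts summed to 7460 and 11064 (5prime_mod), 780 and 13286 (5prime) and 10169 and 17472 (3prime), 60231 in all. A regulatory T cell had a median of 562 counts, with a range of 274 to 4850, and a median of 426 genes. The 5prime replicate 1 library stood apart: it kept 861 of its 2532 barcodes, against 78.3% to 89.9% in the others, and its 2 regulatory T cells make a single count worth 1282 CPM (counts scaled to 1000000 per class and library). Some calls below ended without this library, as stated beside them. In 3prime replicate 2, 1 cell with 4850 counts held 27.8% of that library's regulatory T cell counts and carried 3 counts of Mki67, 4 of Top2a and 5 of Tnfrsf4. No regulatory T cell barcode was shared between libraries.

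The cells entered mostly through Foxp3. Of the 92, 62 had Foxp3 without the Ikzf2 and Ctla4 pair, 26 had the pair without Foxp3, and 4 had both. Just inside the threshold, 54 of the 66 Foxp3-positive cells had a single Foxp3 count, and 12 had 2 or more. Just outside it were 175 cells with Ikzf2 alone and 42 with Ctla4 alone, which count among the other CD8-negative T cells. Of 88 kept cells with a Foxp3 count, 11 were left out for want of a Cd3 count, 8 for 2 or more B cell counts and 3 for a CD8 count. Among 8287 B cells, which should lack Foxp3, 1 had a count.

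The Foxp3 gene lies on chromosome X from 7573644 to 7595245 on the plus strand, and Izumo1r, the receptor gene that was higher in the regulatory T cells of every library, on chromosome 9 from 14885814 to 14903949 on the minus strand (GENCODE M21, mm10). Their promoter windows (RefSeq, GRCm38.p6, 250 bases before the start and 50 from it on) are printed for the gene that defines the cells, which has 2 annotated starts, and for the named receptor tested with either filter, with the transcribed bases in capitals.
Foxp3, chrX:7579426-7579725, plus strand: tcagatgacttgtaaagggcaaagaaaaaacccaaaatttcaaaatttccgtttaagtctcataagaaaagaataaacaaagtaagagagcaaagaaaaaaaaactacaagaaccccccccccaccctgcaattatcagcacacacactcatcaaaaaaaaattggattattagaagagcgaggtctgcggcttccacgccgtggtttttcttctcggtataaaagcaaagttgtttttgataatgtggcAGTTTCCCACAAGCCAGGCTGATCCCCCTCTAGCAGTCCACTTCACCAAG
Foxp3, chrX:7580233-7580532, plus strand: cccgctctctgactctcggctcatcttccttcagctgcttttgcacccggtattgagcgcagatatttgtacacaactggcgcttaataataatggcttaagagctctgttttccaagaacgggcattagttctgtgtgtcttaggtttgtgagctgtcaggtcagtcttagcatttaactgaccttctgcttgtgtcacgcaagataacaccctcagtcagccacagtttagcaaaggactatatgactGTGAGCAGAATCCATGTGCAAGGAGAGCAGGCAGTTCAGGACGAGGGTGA
Izumo1r, chr9:14903718-14904017, minus strand: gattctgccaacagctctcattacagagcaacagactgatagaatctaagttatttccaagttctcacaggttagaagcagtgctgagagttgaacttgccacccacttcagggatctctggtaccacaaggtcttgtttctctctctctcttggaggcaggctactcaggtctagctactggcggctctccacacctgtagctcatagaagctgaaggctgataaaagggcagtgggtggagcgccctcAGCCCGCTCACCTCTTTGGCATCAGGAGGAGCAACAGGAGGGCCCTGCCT
A TATAAA match, searched on both strands, was found in the first of these windows and in 13.6% of the 32851 mouse promoter windows. The motifs TGTTTAC, a forkhead-type site held by 3.65% of all windows, and TGANTCA, an AP-1-type site held by 7.81%, had no match in the 3 windows. No result here bears on the use of these sequences.

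Regulatory T cells made up between 1.12% and 3.89% of the CD8-negative T cells of a library. The share was 3.25% (95% exact binomial interval 1.69 to 5.61) and 3.60% (2.15 to 5.63) in the 5prime_mod libraries, 1.12% (0.136 to 3.98) and 3.66% (2.31 to 5.49) in the 5prime libraries, and 3.89% (2.24 to 6.25) and 3.13% (1.97 to 4.71) in the 3prime libraries. Intervals cover counting error only. The means were 3.43% ± 0.25 in 5prime_mod, 2.39% ± 1.80 in 5prime and 3.51% ± 0.54 in 3prime (SD, n = 2 each). All 6 intervals overlap, and the low value of 5prime replicate 1 rests on 2 of 179 cells. The differences of 1.04 (5prime_mod minus 5prime), -1.12 (5prime minus 3prime) and -0.09 (5prime_mod minus 3prime) percentage points gave p = 1, 0.67 and 1 by two-sided exact permutation tests, whose smallest p with 2 against 2 libraries is 0.33. At this depth and number of libraries no difference in the share was detectable.

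**Figure D1:**
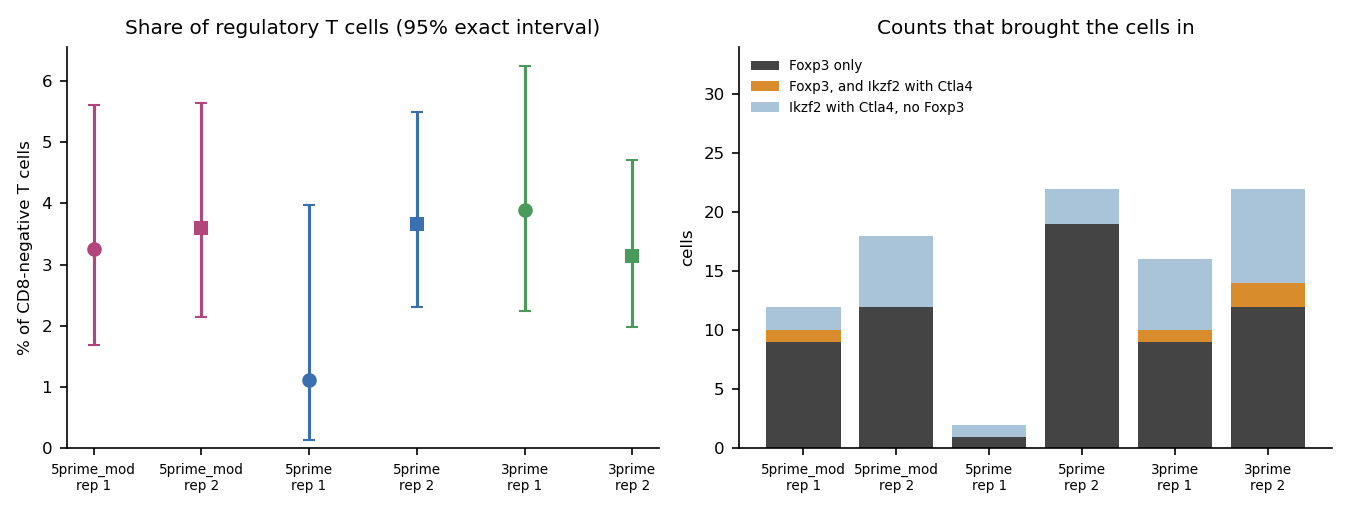
Left, the share of regulatory T cells among CD8-negative T cells in each library, with 95% exact binomial intervals (percent; circles replicate 1, squares replicate 2). Right, the number of regulatory T cells in each library by the counts that brought them in; 5 libraries have 12 to 22 cells and 5prime replicate 1 has 2.

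The share of CD8-negative T cells with a count of each marker was also set side by side. Ikzf2 had a count in 6.23% and 7.20% of CD8-negative T cells in 5prime_mod, 3.35% and 6.32% in 5prime, and 10.95% and 10.97% in 3prime. Ctla4 had a count in 2.71% and 1.80% in 5prime_mod, 1.68% and 2.83% in 5prime, and 4.87% and 3.85% in 3prime. Il2ra showed the same order, with 2.71% and 2.20% in 5prime_mod, 1.12% and 1.83% in 5prime, and 4.87% and 3.56% in 3prime. For all 3 genes both 3prime libraries lay above all 4 libraries of the 5′ kits, and the two-sided exact permutation test of each gave p = 0.33 against either 5′ protocol, the smallest it allows. Thinning every cell to 250 counts kept both 3prime libraries above the 4 others for these genes (Ikzf2 5.39% and 6.46% in 3prime, against 2.96% to 3.51% in the others). Foxp3 did not follow that order: it had a count in 2.71% and 2.40% in 5prime_mod, 0.559% and 3.16% in 5prime, and 2.43% and 1.99% in 3prime.

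**Figure D2:**
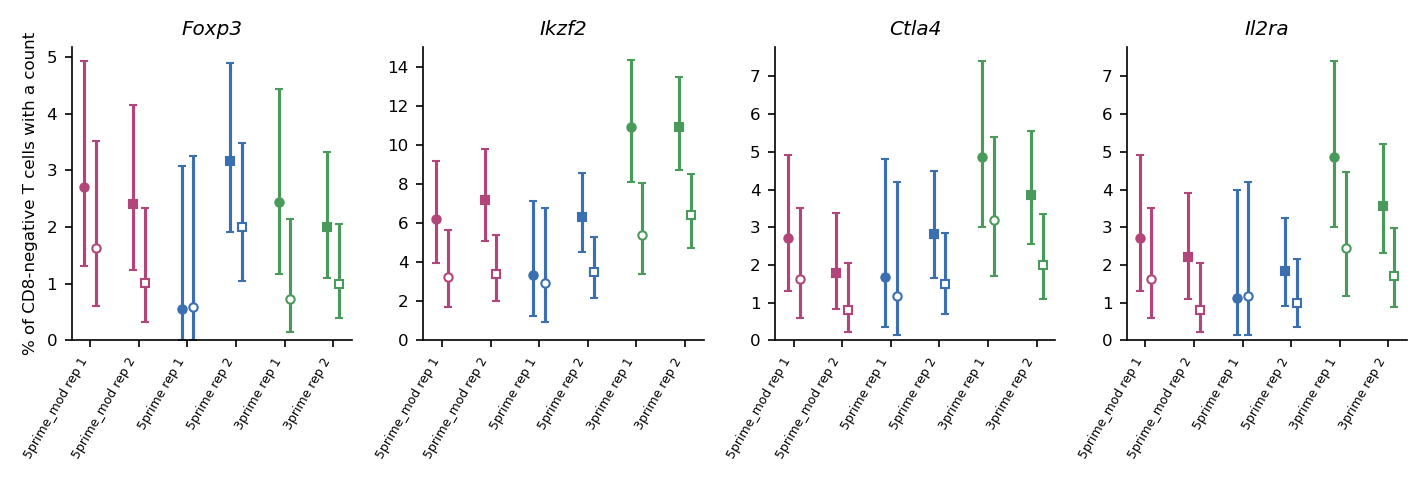
Percent of CD8-negative T cells with a count of Foxp3, Ikzf2, Ctla4 and Il2ra in each library, with 95% exact binomial intervals; filled symbols use all counts, open symbols cells thinned to 250 counts. The 3prime libraries (green) lie above the others for Ikzf2, Ctla4 and Il2ra but not for Foxp3.

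Cells with the Ikzf2 and Ctla4 pair and no Foxp3 numbered 8 of 30 regulatory T cells in 5prime_mod, 4 of 24 in 5prime and 14 of 38 in 3prime. These counts come from genes the rule used and are given without a test.

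Each route into the rule left the genes of the other free to be measured. Ikzf2 had a count in 24 of 66 Foxp3-positive cells (36.4%, 95% exact interval 24.9 to 49.1), against 7.46% of the 2696 CD8-negative T cells without Foxp3. By library it was 20% and 58.3% in 5prime_mod, 100% (1 of 1 cell) and 15.8% in 5prime, and 40% and 50% in 3prime, while the Foxp3-negative cells had 2.81% to 10.2%. It was higher in the Foxp3-positive cells of all 6 libraries (mean difference 40.5 points, two-sided exact sign-change permutation p = 0.03125, the smallest that 6 pairs allow, and 0.156 after adjustment over the 5 measures). Ctla4 had a count in 18 of 66 Foxp3-positive cells (27.3%), against 2.52% of the others, and was higher in 4 of 6 libraries (exact permutation p = 0.125, adjusted 0.208). The 2 libraries where it was not, 5prime_mod replicate 2 and 5prime replicate 1, had no Ctla4 count in their 12 and 1 Foxp3-positive cells.

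In the other direction Foxp3 had a count in 4 of 30 cells with both Ikzf2 and Ctla4 (13.3%, interval 3.76 to 30.7), against 2.27% of 2732 cells without the pair. It was higher in 3 of 6 libraries (exact permutation p = 0.25, adjusted 0.313). The 26 cells with the pair and no Foxp3 count are regulatory T cells by the rule only.

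Il2ra, which the rule did not use, had a count in 14 of 92 regulatory T cells (15.2%, interval 8.58 to 24.2), against 65 of 2670 others (2.43%). It was higher in 5 of 6 libraries (mean difference 11.5 points, exact permutation p = 0.0625, adjusted 0.156). In CPM it stood at 804 and 90.4 in 5prime_mod, 0 and 452 in 5prime, and 197 and 286 in 3prime, against 40.1 and 38.3, 34.6 and 23.9, and 62.9 and 63.1 in the other T cells of the same libraries. Only the 2 cells of 5prime replicate 1 had none, and the 90.4 CPM of 5prime_mod replicate 2 is 1 count. Cells of both routes carried it, 11 of 66 with Foxp3 and 3 of 26 without.

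Cd4, the co-receptor that regulatory T cells carry, was counted in 13 of 92 (14.1%, interval 7.74 to 22.95) and in 255 of 2670 other cells (9.55%), with no direction across libraries (higher in 3 of 6, exact permutation p = 0.625). Where the rule left a marker free, Ikzf2 and Ctla4 in the 66 Foxp3-positive cells and Il2ra in all 92 were counted in a larger pooled share than in the comparison cells, but no p-value passed after adjustment over the 5 measures. Cd4 was counted in too few cells of either kind to place a single cell.

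**Figure D3:**
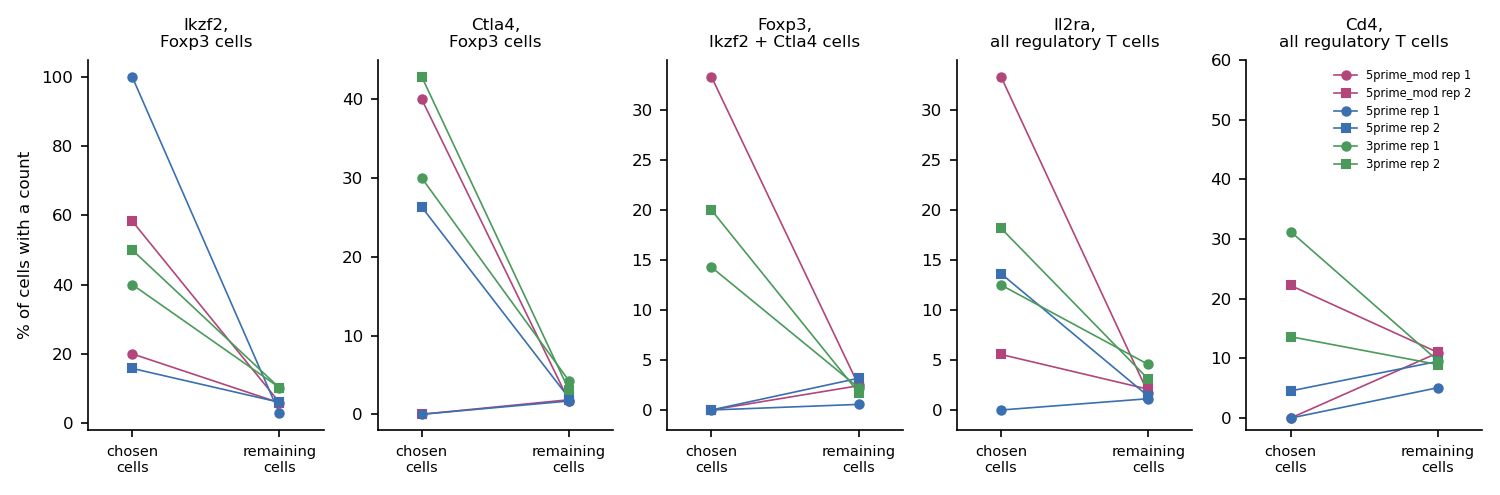
Percent of cells with a count of a gene that did not choose them, per library: Ikzf2 and Ctla4 in Foxp3-positive cells, Foxp3 in cells with Ikzf2 and Ctla4, and Il2ra and Cd4 in all regulatory T cells, each left of the remaining CD8-negative T cells. Lines join the 2 values of a library; Ikzf2 is higher on the left in all 6, Cd4 in 3.

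Set against the other CD8-negative T cells, regulatory T cells had more transcripts of surface receptors (Izumo1r, Tnfrsf4, Tigit) and of the S100a6 and Capg genes, and fewer of genes of the naive state (Lef1, Ccr7) and of cytotoxic cells (Ccl5, Nkg7). Counts were summed per library and class and tested with edgeR's quasi-likelihood test, with the library as a block and without the 11 genes of the rule. This test had 5 residual degrees of freedom and shares its estimate of spread between genes. Its smallest p-values thus rest on that shared estimate more than on a gene's own spread between libraries. Of 478 genes tested, 15 were higher (3.14%) and 32 were lower (6.69%) at an adjusted p under 0.05. The sums of the regulatory T cells are small, and a filter that keeps genes from about 10 counts upwards leaves out most genes known from them. With a minimum of 3 counts, 2041 genes were tested, of which 14 were higher (0.686%) and 34 were lower (1.67%). In these sums, fewer cells with a transcript and less transcript per cell cannot be told apart. The median log2 fold change over all genes tested was -0.07 with the usual filter and -0.28 with the lower one.

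Of 28 surface genes listed for regulatory T cells, 4 were tested with the usual filter, where Izumo1r was higher and none was lower, and their median log2 fold change was 0.63. With the lower filter 9 were tested, of which 5 were higher and none lower, with a median of 1.46. Of the 5, Tigit and Tnfrsf9 entered the test only because all 6 regulatory T cell sums reached the filter's level. Izumo1r, the folate receptor family member FR4, had 1206 and 1717 CPM in regulatory T cells of 5prime_mod, 10256 and 1430 CPM in 5prime, and 393 and 343 CPM in 3prime. The other CD8-negative T cells had 220 and 338 CPM, 329 and 403 CPM, and 97.8 and 213 CPM in the same libraries. It was higher in 6 of 6 libraries, and the lowest value of the regulatory T cells, 343 CPM, lay below the 403 CPM of the other cells of 5prime replicate 2. The log2 fold change was 2.01 ± 0.24 (SE, edgeR adjusted p = 1.73e-14), and 1.61 ± 0.27 without 5prime replicate 1 (adjusted p = 1.47e-07).

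Tnfrsf4 (OX40), a co-stimulatory receptor of the TNF receptor family, had 804 and 90.4 CPM in regulatory T cells of 5prime_mod, 0 and 1280 CPM in 5prime, and 393 and 1087 CPM in 3prime. The other CD8-negative T cells had 65.1 and 73.3 CPM, 34.6 and 101 CPM, and 6.99 and 28.9 CPM. Within every library but 5prime replicate 1 the regulatory T cells were higher, and the log2 fold change was 3.50 ± 0.35 with the lower filter (SE, edgeR adjusted p = 1.1e-19). Tigit, an inhibitory receptor, had 197 to 1282 CPM in regulatory T cells and 0 to 45.1 CPM in the others. The highest of these values is 1 count in the 2 cells of 5prime replicate 1. The log2 fold change of Tigit was 3.08 ± 0.51 (edgeR adjusted p = 5.19e-07). No sum of the other cells reached the level of the lower filter for Tigit, so it was tested only because all 6 regulatory T cell sums did. Its direction and the lack of overlap between the classes were thus set by the filter and are not independent evidence. Tnfrsf9 (4-1BB), another co-stimulatory receptor, had 90.4 to 1282 CPM against 14.0 to 69.2 CPM (2.47 ± 0.48, edgeR adjusted p = 4.21e-05). It entered the test in the same way as Tigit, so its direction and lack of overlap were also set by the filter. Both ends of the Tnfrsf9 range are 1 count, in 5prime_mod replicate 2 and 5prime replicate 1, of 17 counts in all regulatory T cells. Without 5prime replicate 1 its counts were too low for the test. The 90.4 CPM of Tnfrsf4 in 5prime_mod replicate 2 is also 1 count. Tnfrsf18 (GITR), a related co-stimulatory receptor, averaged 392 ± 236 CPM in regulatory T cells and 139 ± 45.2 CPM in the others (SD, n = 6 each), with a log2 fold change of 1.46 ± 0.37 (edgeR adjusted p = 0.00862).

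The summed counts of the 28 surface genes made up 0.511% to 1.54% of the counts of regulatory T cells, against 0.114% to 0.253% in the other CD8-negative T cells. Those of the other cells with a count of Cd44, S100a4, Cxcr3 or Tbx21 had 0.159% to 0.517%, which overlaps the regulatory T cells. Medians over libraries were 0.730% in regulatory T cells and 0.386% in these cells. This list was chosen with results of these data known, so its direction is not independent evidence.

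**Figure D4:**
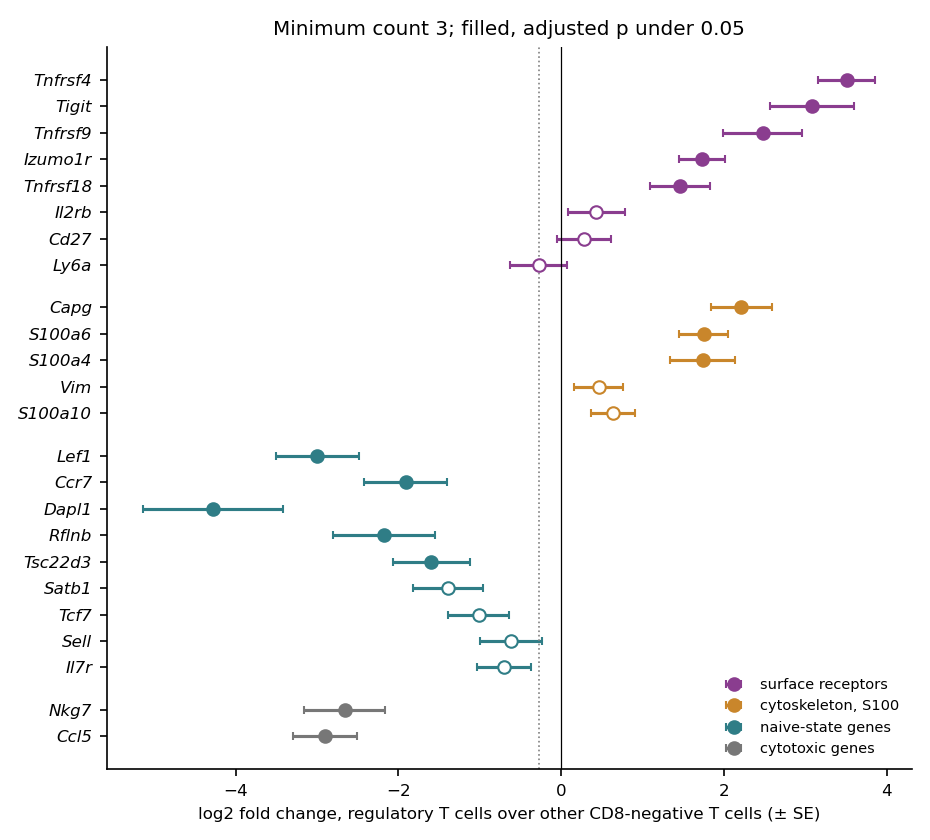
Log2 fold change of regulatory T cells over other CD8-negative T cells, with SE, for genes of 4 groups at a minimum of 3 counts; filled points have an adjusted p under 0.05 and the dotted line marks the median of all genes tested, -0.28. The 5 filled receptor genes lie to the right of the line, Ly6a lies on it, and the naive-state genes shown lie to its left.

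Among 33 transcription factors and partners listed for these cells, 12 were tested with the lower filter and 1, Batf, was higher, with none lower and a median of 0.27. Batf, an AP-1 family factor of effector regulatory T cells, averaged 435 ± 494 CPM in regulatory T cells and 68.6 ± 22.5 CPM in the others (SD, n = 6 each). Its log2 fold change was 1.75 ± 0.44 (edgeR adjusted p = 0.00705), and 5prime_mod replicate 2 had no Batf count in its 18 regulatory T cells. Junb, another AP-1 subunit, was higher by a log2 fold change of 1.15 ± 0.34 (edgeR adjusted p = 0.037). Rgs1, a regulator of G protein signalling that holds lymphocytes in tissue, was higher by 2.59 ± 0.44 (edgeR adjusted p = 6.48e-07), with 0 to 885 CPM in regulatory T cells and 35.1 to 121 CPM in the others.

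Genes of antigen-experienced T cells moved both ways. Of 21 listed, 17 were tested with the lower filter, 3 were higher (S100a4, S100a6, Capg) and 3 lower (Tmsb10, Tagln2, Ccl5). S100a6, a calcium-binding protein, had 804 and 1175 CPM in regulatory T cells of 5prime_mod, 0 and 1430 CPM in 5prime, and 393 and 401 CPM in 3prime, against 220 and 293 CPM, 121 and 227 CPM, and 101 and 147 CPM in the other cells. Outside 5prime replicate 1, every value of the regulatory T cells lay above every value of the others, and the log2 fold change was 2.01 ± 0.26 (SE, edgeR adjusted p = 3.68e-12). Capg, an actin filament capping protein, had 804 and 362 CPM in regulatory T cells of 5prime_mod, 0 and 602 CPM in 5prime, and 492 and 515 CPM in 3prime, against 17.3 to 161 CPM in the others (2.21 ± 0.38, edgeR adjusted p = 1.05e-06). S100a4 was higher by 1.74 ± 0.40 (edgeR adjusted p = 0.00158). Vim, the intermediate filament vimentin, passed with the usual filter (0.77 ± 0.27, edgeR adjusted p = 0.0486), but not with the lower one nor without 5prime replicate 1.

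After S100a6 and Izumo1r, the largest rises named with the usual filter were Ifi27l2a, an interferon-induced gene, and Srgn, the proteoglycan core of secretory granules. Ifi27l2a averaged 2555 ± 1504 CPM in regulatory T cells and 836 ± 306 CPM in the others (SD, n = 6 each) and was higher in 6 of 6 libraries (1.43 ± 0.20, edgeR adjusted p = 1.17e-10). Srgn averaged 1992 ± 866 CPM against 752 ± 155 CPM, also in 6 of 6 libraries (1.18 ± 0.21, edgeR adjusted p = 2.17e-06). H2afz, a histone variant gene of the cell cycle list, S100a10, Tecr, Spcs1, Clic1 and Ly6e were higher by log2 fold changes of 0.51 to 1.07. Without 5prime replicate 1 the calls of H2afz (0.81, edgeR adjusted p = 0.111), Tecr (0.78, 0.218), Spcs1 (0.68, 0.298), Clic1 (0.58, 0.0957) and Ly6e (0.29, 0.403) ended. Of these, Tecr, S100a10, Spcs1, Clic1 and Ly6e had a negative log2 fold change without any filter on low counts. The median over the 16100 genes of that fit was -1.21, and all of these genes lay above it. Also higher, and named after their values were seen, were AW112010 (1.21), Gimap7 (1.00) and Samhd1 (0.88), of which the last pair did not pass without 5prime replicate 1.

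Among genes of the naive, quiescent state, all that passed were lower. Of 23 listed, 20 were tested with the lower filter, of which 5 were lower (Lef1, Ccr7, Dapl1, Rflnb, Tsc22d3) and none higher, and 1 of the 20 had a positive log2 fold change. Their median was -1.01. Lef1, a transcription factor of naive T cells, had 134 and 90.4 CPM in regulatory T cells of 5prime_mod, 0 and 226 CPM in 5prime, and 98.3 and 0 CPM in 3prime, against 746 and 721 CPM, 432 and 546 CPM, and 639 and 671 CPM in the others. The classes did not overlap, and the log2 fold change was -2.74 ± 0.48 (SE, edgeR adjusted p = 8.4e-07). That value is from the usual filter, which admitted Lef1 only through the other cells. The lower filter, whose level several regulatory T cell sums reached, also called Lef1 lower. Ccr7, the chemokine receptor that brings naive T cells into lymphoid tissue, had 0 to 376 CPM in regulatory T cells and 171 to 501 CPM in the others (-1.91 ± 0.51, edgeR adjusted p = 0.0153). Dapl1 had 1 count in the 92 regulatory T cells and 438 in the others (-4.27 ± 0.86, edgeR adjusted p = 8.98e-05).

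Transcripts of cytotoxic and innate-like T cells were also lower. Of the 15 genes of that list, 3 were tested with the lower filter and all 3 fell (Ccl5, Nkg7, Klrd1), beside 1.67% of all genes tested. Klrd1 had no count in regulatory T cells and was tested only through the other cells, so its direction was set by the filter. The count of 3 is therefore not independent evidence. Ccl5, a chemokine of memory and cytotoxic T cells, had 0 and 1085 CPM in regulatory T cells of 5prime_mod, 0 and 301 CPM in 5prime, and 0 CPM in both 3prime libraries, against 1176 to 1867 CPM in the others. Every regulatory T cell value lay below every value of the others, with a log2 fold change of -2.59 ± 0.31 (SE, edgeR adjusted p = 1.73e-14). Nkg7, a granule membrane protein, was lower in 5 of 6 libraries (-2.39 ± 0.47, edgeR adjusted p = 1.97e-05). Klrd1 (CD94) and Ly6c2 had no count in regulatory T cells. A floor of 3 counts over all 92 cells makes Klrd1 at least 3.78-fold lower and Ly6c2 at least 7.79-fold lower.

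The comparison was repeated against only the 255 other CD8-negative T cells with a Cd4 count, a choice made after seeing the data. Ccl5 stood there at 266 CPM in regulatory T cells and 289 CPM in the Cd4-counted cells, summed over libraries, and its counts were too low for the test. Nkg7, at 116 CPM against 307 CPM, was not tested there either. Klrd1 and Ly6c2 stood at 30.1 CPM each in the Cd4-counted cells, under the 49.8 CPM that the floor of 3 counts is worth in regulatory T cells, so no lower bound can be given there. Of the naive-state list 13 genes were tested, of which Lef1 was lower and 3 were positive, with a median of -0.29 beside -0.08 over all genes tested. Lef1 had 99.6 CPM in regulatory T cells against 615 CPM (-2.62, edgeR adjusted p = 1.47e-05). Ccr7, with 116 CPM against 350 CPM, missed the threshold (-1.57 ± 0.52, edgeR adjusted p = 0.0519). Izumo1r, Tnfrsf18, S100a6, Capg and Junb were again higher, among 12 higher (1.75%) and 19 lower (2.77%) of 685 genes tested with the lower filter. Tnfrsf4 had 780 CPM in regulatory T cells and 84.4 CPM in the Cd4-counted cells, whose counts were too low for the test. Tigit, with 266 CPM against 60.3 CPM, gave a log2 fold change of 1.91 and an edgeR adjusted p of 0.0772.

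The haemoglobin gene Hbb-bs was lower in all 6 libraries (-3.79 ± 0.32, edgeR adjusted p = 1.26e-29), but its level in the other CD8-negative T cells ranged from 8.95 to 13241 CPM between libraries. It marks red blood cell RNA, whose part in other results was not tested. Among B cell genes, 2 of 18 were tested and none passed, and Cd22, Pax5 and Ebf1 had no count in regulatory T cells. The B cell list held 0.0630% to 0.128% of their counts, against 0.0681% to 0.455% in the other T cells. By cells the order was the other way. A count of that list was held by 31.8% to 56.25% of regulatory T cells, against 24.9% to 36.9% of the others, and more often in all 6 libraries. Lyz2 and Csf1r of the myeloid list also had no count, and that list held 0% to 0.0994% of counts, against 0.0494% to 0.0784%. The medians over libraries were 0.0679% and 0.0580%. A myeloid list count was held by 0% to 44.4% of regulatory T cells, against 14.1% to 24.5% of the others. It was more frequent in the regulatory T cells of every library but 5prime replicate 1. The source of these counts was not tested.

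Most other listed groups held no gene that passed. None of 13 tested class I genes or 7 tested interleukin 2 and STAT5 genes passed with the lower filter. Of 24 cell cycle genes, H2afz was higher among 4 tested with the usual filter, and none of 6 passed with the lower one. Of 27 T cell receptor signalling genes, all tested, Thy1 alone was lower (-1.57 ± 0.48, edgeR adjusted p = 0.0442). With the usual filter, 18 of 49 tested ribosomal protein and translation factor genes were lower and none higher, with called log2 fold changes between -0.63 and -0.35. That grouping was made after the values were seen.

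**Figure D5:**
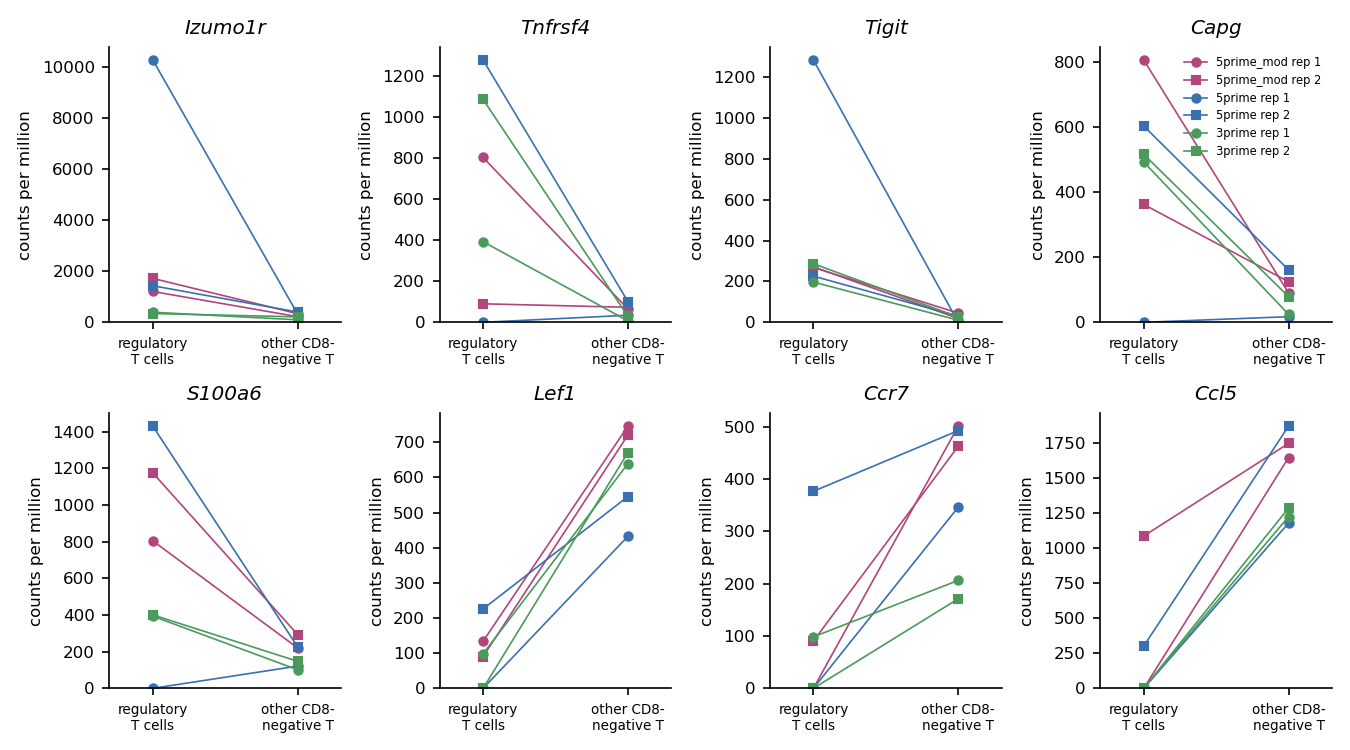
CPM of 8 genes in regulatory T cells (left in each panel) and in other CD8-negative T cells, 1 point per library. Tigit, Lef1 and Ccl5 do not overlap between the classes, which for Tigit was set by the filter. Izumo1r, Tnfrsf4, Capg and S100a6 are higher on the left in most or all libraries, and a single count in 5prime replicate 1 equals 1282 CPM.

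Several receptors known from regulatory T cells had too few counts to be tested with all 6 libraries. The receptors named next were chosen after their values were seen, and their shares pool cells over libraries. Klrg1, an inhibitory receptor of terminally differentiated cells, had 19 counts in 8 of 92 regulatory T cells (8.70%, exact interval 3.83 to 16.4), against 6 counts in 6 of 2670 others (0.225%). Nrp1 (neuropilin 1), known from thymus-derived regulatory T cells, was counted in 17 of 92 cells (18.5%), against 1.31% of the others. Pdcd1 (PD-1) was counted in 11 of 92 (12.0%), against 1.46%, and Ccr8 in 7 of 92 (7.61%), against 0.187%. B cells, which should lack these genes, had Klrg1 in 1, Nrp1 in 3, and Pdcd1 and Ccr8 in 0 of 8287 cells. Without 5prime replicate 1, where 20 of 1856 genes tested were higher (1.08%) and 70 lower (3.77%), Pdcd1 could be tested and was higher by a log2 fold change of 2.52 ± 0.52 (edgeR adjusted p = 0.000125). Gata3, a transcription factor of helper and some regulatory T cells, was higher in that fit as well (1.59 ± 0.48, edgeR adjusted p = 0.0244). Il10, a suppressive cytokine, had 1 count in all 92 regulatory T cells and none in the others.

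Cells of both routes carried Tnfrsf4, Izumo1r and Capg. Tnfrsf4 was counted in 24.2% of the 66 Foxp3-positive cells and 30.8% of the 26 cells without Foxp3, against 2.28% of the other CD8-negative T cells. Izumo1r was counted in 37.9% and 34.6%, against 10.4%, and Capg in 22.7% and 23.1%, against 4.12%. Nkg7 was counted in 3.03% of the Foxp3-positive cells, 15.4% (4 of 26) of those without Foxp3 and 17.5% of the others. These shares pool cells over libraries and were not tested.

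Regulatory T cells were next set against 287 other CD8-negative T cells with a count of Cd44, S100a4, Cxcr3 or Tbx21, genes of activated and memory T cells. Of 148 genes tested, 3 were higher (2.03%) and 5 lower (3.38%), and with the lower filter 9 of 756 were higher (1.19%) and 18 lower (2.38%). The 3 were Ifi27l2a (0.95 ± 0.20, edgeR adjusted p = 0.00218), Npm1 and Rpl32. Ifi27l2a kept its call in 11 of 15 alternative settings, Npm1 in 1 of 15 and Rpl32 in 1 of 16. The calls of Npm1 and Rpl32 ended with DESeq2, with the lower filter and without 5prime replicate 1, among others. The receptors Tnfrsf4 (2.12 ± 0.37, edgeR adjusted p = 9.25e-07) and Izumo1r (1.80 ± 0.31, edgeR adjusted p = 7.86e-07) were higher against these cells too. Capg was higher by 1.28 ± 0.38 (edgeR adjusted p = 0.0274). S100a6 was not, with 701 ± 537 CPM in regulatory T cells and 820 ± 365 CPM in the activated-marker-positive cells (SD, n = 6 each; 0.04 ± 0.29, edgeR adjusted p = 0.986). Tigit (1.61 ± 0.59, adjusted p = 0.146) and Tnfrsf18 (0.88 ± 0.39, adjusted p = 0.3) missed the threshold of the edgeR test. Of the naive-state list, 7 genes were tested with the lower filter and none passed, with a median log2 fold change of 0.22 beside -0.09 over all genes tested.

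The genes of cytotoxic and effector cells were lower against these cells. Ccl5 averaged 231 ± 435 CPM in regulatory T cells and 3700 ± 1245 CPM in activated-marker-positive cells (SD, n = 6 each; -3.88 ± 0.37, edgeR adjusted p = 1.71e-08). Nkg7 averaged 298 ± 491 CPM against 1332 ± 399 CPM (-3.53 ± 0.44, edgeR adjusted p = 2.32e-06). Id2, a transcriptional regulator of effector and innate lymphocytes, averaged 147 ± 125 CPM against 918 ± 144 CPM and was lower in 6 of 6 libraries (-2.25 ± 0.39, edgeR adjusted p = 0.000251). Lgals1, galectin 1, was lower by a log2 fold change of -1.27 ± 0.34 (edgeR adjusted p = 0.0306). Ly6c2 was at least 16.0-fold lower, from 0 counts in regulatory T cells.

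Between protocols, few genes differed within regulatory T cells. Of 149 genes tested, none was higher or lower in 5prime_mod against 5prime (0%) with edgeR, with 8 at an unadjusted p under 0.05, and DESeq2 called none. Against 3prime, 1 gene was higher (0.671%) and 2 lower (1.34%) in 5prime_mod, and likewise in 5prime.

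Malat1, a nuclear non-coding RNA, was lower by log2 fold changes of -1.61 ± 0.41 in 5prime_mod (edgeR adjusted p = 0.0208) and -2.83 ± 0.53 in 5prime (edgeR adjusted p = 0.000445) against 3prime. With the replicate number as a block, the first value was -1.45 ± 0.34 and no longer passed (edgeR adjusted p = 0.101), and DESeq2 called no gene lower in 5prime_mod. Its CPM in regulatory T cells was 5764 and 5785 in 5prime_mod, 7692 and 1882 in 5prime, and 18094 and 7612 in 3prime, so the 5prime and 3prime values overlap. Gm26917, a predicted gene, had no count in regulatory T cells of either 5′ protocol and 59 in 3prime, and was at least 13.2-fold lower in 5prime_mod and at least 10.0-fold lower in 5prime by a floor of 3 counts per protocol. With the lower filter, of 605 genes tested, none passed in 5prime_mod against 5prime, 1 was higher (0.165%) and 6 lower (0.992%) in 5prime against 3prime, and 3 were higher (0.496%) and 4 lower (0.661%) in 5prime_mod against 3prime. Ccl5 was among these 3, with 12 counts in 5prime_mod, all in replicate 2, and 0 in 3prime.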

How the data were processed

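The authors deposited a matrix of whole-number counts per gene and barcode for each of 6 libraries, whose genome build was mm10 and where Seurat is named for part of the series with no version, per the submitters' processing notes. The aligner, annotation, strand setting, cell calling and collapsing of molecules were not given in the sources used here. Library totals were 723341 to 2627253 counts.

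Barcodes of 200 or more genes and a mitochondrial share up to 20% counted as cells (Python 3.11.15, SciPy 1.17.1). Doublets were not called. Members and gene lists were chosen with earlier results of these data known. Counts were summed per library and class and tested with edgeR 4.0.16 in R 4.3.3 (quasi-likelihood test, TMM, Benjamini-Hochberg at 0.05), with DESeq2 1.42.0 as an alternative. Filters were set by 10 or 3 counts in a sum of median size. CPM are counts scaled to 1000000 per class and library. Named genes were drawn from the 15 largest rises and 10 largest falls (10 and 5 against activated-marker-positive cells, 5 and 5 between protocols) past the threshold with the same direction in at least 5 libraries, a minimum of 50 CPM (100 between protocols) and, between protocols, no overlap, and from called genes of the 20 lists, plus Il2ra and Cd4. Not all genes so selected are named, and several of the largest falls are left out. Others named here (Klrg1, Nrp1, Pdcd1, Ccr8, Il10, Ly6c2, Malat1, genes of the ribosome) were chosen after their values were seen. The fit was also run on simulated counts, drawn without a library effect and with changes only in genes of higher counts. That run does not show how the fit behaves for sparse genes. Intervals are exact binomial. Replicate numbers grouped the libraries: deviations of same-numbered libraries correlated at 0.293 to 0.400 in the other CD8-negative T cells and at 0.0127 to 0.0227 in the sparse sums of regulatory T cells, and summed counts of same-numbered libraries differed less (chi-square per degree of freedom 3.23 to 23.3) than those of others (30.6 to 65.1). The pairing comes from the data, since the labels name no shared batch. Some genes that passed a test are counted but not reported here by name.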

Additional observations from a re-analysis of the deposited data

How the results depend on the processing

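Depth limits these results: the regulatory T cells hold 60231 counts, and 2 of them stand for 5prime replicate 1. Izumo1r, Lef1 and Ccl5 kept their direction and call against other CD8-negative T cells in all 15, 16 and 16 alternatives that tested them (log2 fold changes 0.97 to 2.24, -3.76 to -2.19 and -4.24 to -2.21). Ccl5 was not tested against the Cd4-counted cells, where it stood at 266 CPM in regulatory T cells and 289 CPM in the Cd4-counted cells. S100a6 (adjusted p = 0.0645, edgeR) and Ifi27l2a were lost without a filter, Nkg7 when thinned and Hbb-bs without the library block. The causes were not tested.

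The share differences of 1.04, -1.12 and -0.0874 points cannot change with the replicate block, since the mean of paired differences equals the difference of means. For them the block is no check. In the gene tests the block gave 0 and 0 genes higher and lower for 5prime_mod against 5prime. It gave 1 and 2 for 5prime against 3prime, and 1 and 1 for 5prime_mod against 3prime.

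The share difference of 5prime_mod minus 5prime was -0.741 points with a filter of 300 genes and 10% mitochondrial counts. That of 5prime minus 3prime was 0.715 with that filter and 0.241 when thinned, and that of 5prime_mod minus 3prime was 0.341 by Foxp3 alone and 0.422 when thinned. Leaving out 1 library gave -0.235 to 2.31, -2.40 to 0.147 and -0.467 to 0.292; without 5prime replicate 1 the first was -0.235 and the second 0.147. Thinned, Ikzf2 in Foxp3-positive cells differed by 30.3 points (exact permutation p = 0.0625) and Cd4 by -0.589. Leaving out 1 library gave 29.2 to 46.7 for Ikzf2, where 5 pairs allow no p under 0.0625, and -1.01 to 5.497 for Cd4, the lowest without 3prime replicate 1.

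Against other CD8-negative T cells, genes higher numbered 7 with DESeq2, 7 without the library block, 6 thinned, 6 at 300 genes and 4 against Cd4-counted cells. Genes lower numbered 18 with DESeq2, 668 without a filter, 6 without the block, 9 thinned, 7 by Foxp3 alone, 18 at 300 genes, and 4 against Cd4-counted cells (19 with the lower filter). Leaving out 1 library gave 8 (without 5prime_mod replicate 2) to 20 higher and 19 (without 5prime replicate 2) to 70 lower (without 5prime replicate 1).

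Against activated-marker-positive cells, genes higher numbered 1 with RLE, 1 with DESeq2, 6 without a filter, 9 with the lower filter, 0 without the block, 0 thinned, and 1 each by Foxp3 alone, without B cell counts, at 300 genes and under 4000 counts (chosen after seeing the data, like the Cd4-counted cells). Genes lower numbered 3 with DESeq2, 105 without a filter, 18 with the lower filter, 3 without the block, 0 thinned, 2 by Foxp3 alone and 3 at 300 genes. Leaving out 1 library gave 1 to 2 higher and 3 to 8 lower.

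For 5prime against 3prime, genes higher numbered 2 with RLE and 0 without a filter. Genes lower numbered 4 with RLE, 1 with DESeq2, 0 without a filter, 6 with the lower filter and 1 by Foxp3 alone. For 5prime_mod against 3prime, genes higher numbered 0 without a filter and 3 with the lower one, and genes lower 1 with the replicate block, 0 with DESeq2, 0 without a filter, 4 with the lower filter and 1 by Foxp3 alone. Leaving out 1 library gave 0 to 1 higher and 1 to 5 lower for 5prime, and 0 to 2 higher and 1 to 3 lower for 5prime_mod. Without a filter, log2 fold changes turned to -0.0397 for Tecr, -0.14 for S100a10, -0.16 for Spcs1, -0.31 for Clic1 and -0.61 for Ly6e, and to -0.27 for Rpl32 against activated-marker-positive cells. The medians over all genes of these fits were -1.21 against other CD8-negative T cells and -0.76 against activated-marker-positive cells. Clic1 was -0.0649 when thinned.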
